A study of Mus musculus with 12 samples.

Results

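The mRNAs of the cytosolic ribosomal proteins were followed through the first steps of mesendoderm differentiation of mouse embryonic stem cells. The members were chosen by name: counted loci whose assembled transcripts matched an annotated gene named Rpl or Rps with a number and at most 1 letter after it, Rplp0 to Rplp2 or Rpsa. The rule leaves out processed pseudogenes with "-ps" in their names and relatives with longer names, such as Rpl22l1, Rpl36al and Rps3a1. This rule found 80 of the 80012 loci counted, 45 for proteins of the large subunit, 32 for proteins of the small subunit and 3 for the stalk of the large subunit. The loci of Rpl3l, Rpl10l, Rpl39l, Rps4l and Rps27l, named as "like" copies of another member, are called the 5 variant paralogs here, and the other 75 are called core members. The test was run on 79 members, because the annotation listed Rps4l as a transcribed processed pseudogene and the classes tested held protein-coding and long non-coding genes.

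All cells came from 1 C57BL/6 embryonic stem cell line in which an EGFP reporter is read from the endogenous Eomes gene, so the controls carried the reporter too. The 3 groups were undifferentiated cells grown on mouse embryonic fibroblast feeders (ESC, day 0), and reporter-negative (Eo-) and reporter-positive (Eo+) cells sorted from dissociated embryoid bodies at day 3. Each group had 4 poly(A)-selected RNA-seq libraries, numbered 1, 2, 5 and 6 and described as 4 differentiation sets, with 648413022 to 837308168 counts per library. The approximate read number in the methods is lower than these totals. Whether a count stands for a read or a read pair is therefore not known here. Eomes itself, the gene of the gate, stood at 36.5 to 57.2 CPM (read counts scaled to a common library size) in ESC, 116 to 168 in Eo- and 446 to 641 in Eo+. The summed level of 11 pluripotency genes was 3472 to 4554 CPM in ESC, 1411 to 1753 in Eo- and 564 to 850 in Eo+, and that of 14 mesendoderm genes ran the other way, at 121 to 375, 333 to 680 and 2338 to 3775 CPM. The ESC libraries also carried more feeder-type mRNA: the sum of 18 fibroblast genes was 280 to 843 CPM there, against 80.1 to 101 in Eo- and 90.6 to 120 in Eo+. Of 17 tested, 14 were lower and 1 higher in Eo+ than in ESC (88.2% called, beside 71.9% of all loci). In Eo- 13 were lower and 1 higher (82.4%, beside 62.2%). Mgp, which had the largest fall of the list in Eo+, was at 10.7 to 51.5 CPM in ESC and at most 0.148 CPM in the sorted cells. Embryonic red-cell mRNA set replicate 1 of Eo- apart, where 10 such genes summed to 110 CPM, while replicates 2, 5 and 6 held 4.7 to 6.82 CPM.

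Every ribosome is built from 1 copy of nearly every ribosomal protein, joined to ribosomal RNA in the nucleolus, so cells keep the mRNAs of these proteins abundant and close to one another in amount. Most of these mRNAs are known as TOP mRNAs: they begin with a C followed by an unbroken run of pyrimidines (C or T in the DNA), through which their translation is raised or lowered together by the growth-regulating kinase mTOR. Poly(A) RNA-seq measures the amount of such mRNA and not its translation. A few members have a second gene copy that is known for use in particular tissues: Rpl10l and Rpl39l in the male germ line and Rpl3l in muscle, where the copies stand in for the X-linked Rpl10 and Rpl39 and for Rpl3.

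The sequences below are printed because the largest changes among the members were those of gene copies whose coding sequences are close to that of another member. Over the coding sequence, Rpl39l and Rpl39 were identical at 130 of 153 aligned bases (85%), Rpl10l and Rpl10 at 544 of 642 (84.7%), Rps27l and Rps27 at 192 of 252 (76.2%) and Rpl3l and Rpl3 at 894 of 1206 (74.1%). The longest identical run was 38 bases in the Rpl39 pair and 23 bases in the Rpl10 pair, shorter than the reads of 100 bases, so that most read pairs within these coding sequences cover a base that tells the copies apart. The first 60 coding bases of the copies, 5′ to 3′ from GRCm38, are shown with the bases that differ within each pair in capitals.
Rpl39: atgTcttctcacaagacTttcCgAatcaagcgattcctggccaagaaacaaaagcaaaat
Rpl39l: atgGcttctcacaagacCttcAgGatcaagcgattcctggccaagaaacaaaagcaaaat
Rpl10: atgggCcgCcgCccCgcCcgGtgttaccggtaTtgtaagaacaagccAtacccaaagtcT
Rpl10l: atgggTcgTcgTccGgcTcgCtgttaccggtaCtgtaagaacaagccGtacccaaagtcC
In this window 4 bases differed between Rpl39 and Rpl39l, and 9 between Rpl10 and Rpl10l. Rpl39l lies at chr16:10170226-10174911 on the plus strand, and Rpl39 on the X chromosome at chrX:37082520-37085402 on the minus strand (build GRCm38, mm10). Rpl10l lies at chr12:66283379-66284401 on the minus strand, and Rpl10 at chrX:74270812-74273135 on the plus strand. Rpl3l lies at chr17:24727820-24736143 on the plus strand, and Rpl3 at chr15:80077791-80091868 on the minus strand.

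The start of the mRNA was read from RefSeq promoters (GRCm38.p6), which held an entry for 59 of the 80 members. The windows below give 15 bases before and 15 bases from the annotated start for members that the results name, with the unbroken C and T run that holds the start base in capitals where it is at least 5 bases long.
Rpl14, chr9:120571502-120571531, plus strand: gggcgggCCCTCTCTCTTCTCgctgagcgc
Rpl31, chr1:39367836-39367865, plus strand: cttcctcctcgCCTCCCCgtgacccggaag
Rplp2, chr7:141447636-141447665, plus strand: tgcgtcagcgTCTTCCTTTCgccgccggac
Rpl39, chrX:37085208-37085237, minus strand: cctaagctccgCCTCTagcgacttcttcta
Rpl39l, chr16:10170213-10170242, plus strand: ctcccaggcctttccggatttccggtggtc
Rpl10l, chr12:66284387-66284416, minus strand: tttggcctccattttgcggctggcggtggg
Rpl10, chrX:74270801-74270830, plus strand: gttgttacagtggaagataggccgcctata
Such a run over the annotated start was present in 20 of the 59 members (33.9%) and in 11.8% of all 27018 genes with an entry. A C followed by at least 4 further C or T bases that began within 5 bases of the start was present in 28 of the 59 members (47.5%) and in 21.2% of all genes. The motif CCGGAAGT, which is bound by ETS-family factors, or its reverse ACTTCCGG was found between 250 bases before and 50 bases after the start of 12 members (20.3%) and of 4.31% of all genes. The windows of Rpl39l and Rpl10l held no such run at the start base, and neither did those of the core copies Rpl10 and Rps4x, while those of the core copies Rpl39 and Rps27 did. These are matches of letters at annotated starts, and the true starts in these cells were not analysed here.

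The share of all counts that fell on ribosomal protein loci lay between 9.23 and 11% in the 12 libraries. The 80 members took 9.45, 9.78, 9.86 and 9.52% of all counts in ESC (mean 9.65% ± 0.198, SD, n = 4). They took 9.23, 10.9, 11 and 9.94% in Eo- (10.3% ± 0.856, n = 4) and 9.37, 9.38, 9.68 and 9.7% in Eo+ (9.54% ± 0.182, n = 4). The ranges of the 3 groups overlapped, and the lowest and highest shares of the 12 libraries were both in Eo-. In these bulk libraries a smaller number of cells of a type and less RNA per cell cannot be told apart. The balance between the subunits also held, with 1.36 to 1.39 counts for the large subunit and stalk per count for the small subunit in the 12 libraries. Loci named as ribosomal protein pseudogenes, 238 in number, were counted apart and held reads equal to 0.732 to 0.873% of the member counts. Reads without a unique placement were not counted, and some of them may belong to members with pseudogenes. Their tally was 22.4 to 26.2% of the sum of the counts and the tallies of non-unique, ambiguous and unassigned reads. Whether a read with several placements enters this tally more than once is not known here. With that tally added to the counts, the members took 7.23, 7.65 and 7.29% on average in ESC, Eo- and Eo+.

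**Figure D1:**
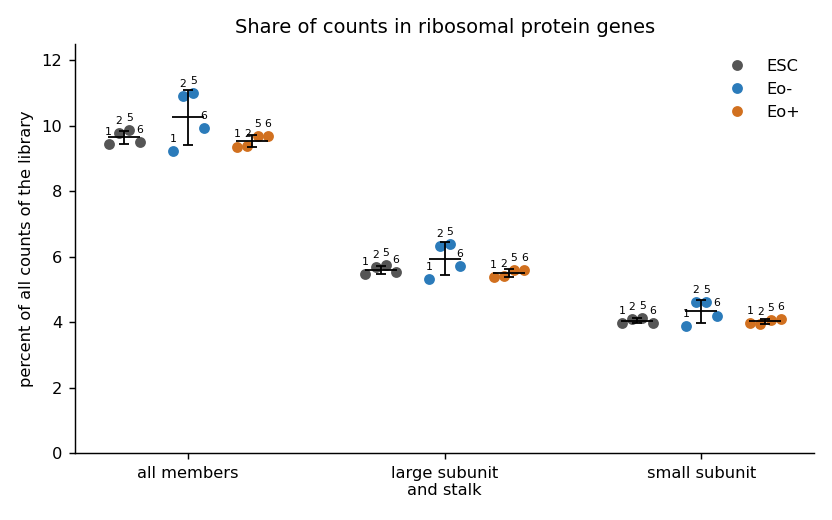
Percent of all counts that fell on the 80 ribosomal protein loci in each of the 12 libraries (points) with the mean and SD of each group (n = 4). All libraries lie between 9.23 and 11%, and the 4 Eo- libraries spread more widely than the 4 ESC or the 4 Eo+ libraries.

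Per kilobase of exon, the members spanned a wide range. The highest mean levels over the 12 libraries, in counts scaled to library size and to kilobases of locus exon (FPKM), were those of Rps12 (4084), Rplp1 (3523), Rpl32 (2488), Rpl4 (2337) and Rps26 (2291). The lowest were those of Rpl37 (92.8), Rpl29 (22.3), Rpl39l (15.6), Rpl10l (10.2) and Rpl3l (0.21). These figures divide by the exon length of the whole locus, and 6 member loci included exons of another protein-coding gene, Commd5 with Rpl8 and Zbtb11 with Rpl24 among them. With the length of the matched transcripts alone, 3 of the 5 highest members stayed among the 5 highest and Rpl24 moved from 105 to 904 FPKM. At the low end, Rpl37 moved to 783 FPKM and left the 5 lowest, Rpl29 moved to 104, and Rpl10l (20.6) passed Rpl39l (15.6), so the order by level depends on the length used. Reads shared with pseudogenes were not counted, and their part in the low levels, such as that of Rpl29, was not tested.

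Between the groups, the core members moved very little. From ESC to Eo+, 12 of the 75 core members passed the test (limma-voom, Benjamini-Hochberg adjusted p at or under 0.05), 2 higher and 10 lower. This was 16% of them, where 71.9% of all 17922 loci tested passed, 35.8% higher and 36.1% lower. Among loci with a mean of at least 100 CPM, 63.4% passed. The core members' log2 fold changes lay between -0.32 and 0.27, and 74 of the 75 had a 95% interval that stayed within 0.5 log2 of no change. Over the 79 members tested, 15 passed, 2 higher and 13 lower (0 and 17 by DESeq2's Wald test), the median log2 fold change was -0.05 and the median size of the change was 0.07, against a median size of 0.68 over all loci. The interval stayed within 0.5 log2 for 75 of the 79 members (94.9%) and for 21.6% of all loci. Without replicate 1 or replicate 5 of Eo+ 9 members passed. More than 15 passed with the 2 groups alone (12440 of all 17922 loci) or with loci kept at 1 CPM in at least 4 libraries (9877 of 13699 loci). The median was -0.0016 with plain library totals, -0.0932 with DESeq2 size factors and -0.0203 without replicate 5 of Eo+.

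From ESC to Eo-, 7 of the 75 core members passed the test, 6 higher and 1 lower, which was 9.33% of them beside 62.2% of all loci (30.9% higher and 31.3% lower) and 52.8% of those with at least 100 CPM. Their log2 fold changes lay between -0.18 and 0.30, and 73 intervals stayed within 0.5 log2. Over the 79 members tested, 10 passed (6 higher, 4 lower) and the median size of the change was 0.08, against 0.51 over all loci. With DESeq2 size factors in place of the TMM scaling the split was 2 higher and 8 lower, and with plain library totals 23 members passed, 20 higher and 3 lower, so the direction of this split depended on the scaling. The split was also tied to replicate 1 of Eo-, the library with the high red-cell mRNA: without it 20 members passed, 17 higher and 3 lower. Without replicate 6 of ESC, 5 members passed.

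Between the sorted fractions, 4 of the 75 core members passed the test and all 4 were lower in Eo+ than in Eo-, which was 5.33% of them beside 47.7% of all loci (23% higher and 24.6% lower) and 34.9% of those with at least 100 CPM. Their changes lay between -0.23 and 0.06 log2, and all 75 intervals stayed within 0.5 log2. Over the 79 members tested, 7 passed, all lower in Eo+, and 69 of the 79 had a negative change, with a median of -0.08 beside -0.01 over all loci. This fit did not pair the fractions by replicate number. With the number as a block more members passed, as did more of all 17922 loci (9555, beside 8543 without it). Replicate 1 of Eo- bore on this count as well: without it 22 members passed, and without replicate 2, 5 or 6 of Eo- or replicate 1 of Eo+ 3 passed. The median change was -0.14 without replicate 1 of Eo-, -0.03 without replicate 2 and -0.03 without replicate 5.

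**Figure D2:**
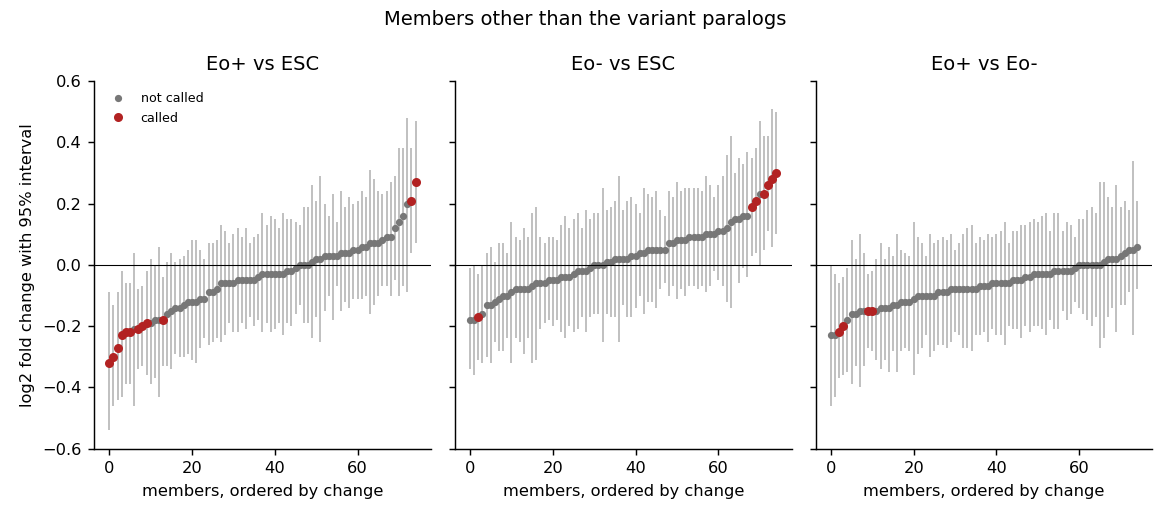
Log2 fold change (y axis) of each of the 75 core members in the 3 comparisons, with 95% intervals from limma-voom as lines, ordered by the change along the x axis. Called members are red and all others grey, and the points lie between -0.32 and 0.30.

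By subunit, the counts were close. Of the 45 core members of the large subunit and stalk, 7, 4 and 3 passed in Eo+ against ESC, Eo- against ESC and Eo+ against Eo-, and of the 30 of the small subunit 5, 3 and 1 passed. These were 15.6, 8.89 and 6.67% of the former and 16.7, 10 and 3.33% of the latter, beside 71.9, 62.2 and 47.7% of all loci. The median log2 fold changes were -0.05, 0.01 and -0.06 for the large subunit with the stalk, and -0.03, 0.03 and -0.07 for the small subunit. Core members with a pyrimidine run over the annotated start (20) had medians of -0.04, 0.01 and -0.07, and those with an entry and no such run (35) had -0.02, 0.05 and -0.07. Across the 75 core members, the GC content of the transcripts had a Spearman correlation of -0.124, -0.0108 and -0.289 with the fold change in the 3 comparisons. Both are descriptions across genes that share libraries.

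The largest changes among the members were those of 3 variant paralogs, while the mRNAs of the core copies stayed. The mRNAs of Rpl39l and Rpl10l nearly vanished from Eo+ cells, and that of Rpl3l fell to 8.47% of an ESC level that was already low. Rpl39l, the copy of a protein that lines the exit tunnel of the large subunit, stood at 29.5, 31, 30.3 and 39.1 CPM in the ESC libraries. It stood at 5.45, 6.69, 7.71 and 7.89 CPM in Eo- and at 0.107, 0.202, 0.328 and 0.276 CPM in Eo+. The 3 groups did not overlap, and Eo- lay between the others. Rpl39l fell by 7.27 log2 from ESC to Eo+ (SE 0.31, adjusted p = 5.34e-10), and the ratio of the mean CPM was 142-fold. It fell by 2.23 log2 from ESC to Eo- (SE 0.16, adjusted p = 8.43e-08), and it was lower in Eo+ than in Eo- by a log2 change of -5.04 (SE 0.33, adjusted p = 1.84e-07). The Eo+ values rest on 84 to 233 counts per library, far above the limit of 3 counts, which is 0.00354 to 0.00467 CPM.

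Rpl10l, an intronless copy of Rpl10, a protein that joins the large subunit late in its assembly, followed the same order. Its levels were 44.9, 62.2, 51 and 63.6 CPM in ESC. They were 7.51, 9.72, 8.81 and 9.26 CPM in Eo- and 0.234, 0.406, 0.522 and 0.428 CPM in Eo+. Again no library of one group reached into another. Rpl10l fell by 7.17 log2 from ESC to Eo+ (SE 0.28, adjusted p = 2.6e-10) and by 2.64 log2 from ESC to Eo- (SE 0.15, adjusted p = 1.59e-08), and the change from Eo- to Eo+ was -4.53 (SE 0.29, adjusted p = 1.92e-07). The ratios of the mean CPM were 139-fold, 6.28-fold and 22.2-fold in the same order. The locus held 2073 exon bases, of which 1023 match the annotated Rpl10l transcript, so its count includes reads from assembled sequence outside that transcript.

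Rpl3l, the muscle copy of Rpl3, whose protein reaches towards the peptidyl transferase centre, was low throughout. It stood at 0.5, 0.815, 0.477 and 0.912 CPM in ESC, at 0.237, 0.434, 0.314 and 0.275 CPM in Eo- and at 0.0523, 0.0698, 0.0773 and 0.0296 CPM in Eo+. The groups did not overlap, though the Eo+ counts were as few as 19 to 55 per library. The log2 change was -3.55 from ESC to Eo+ (SE 0.40, adjusted p = 2.27e-06), -1.07 from ESC to Eo- (SE 0.29, adjusted p = 0.00528) and -2.48 from Eo- to Eo+ (SE 0.41, adjusted p = 0.000275).

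Rps4l, an autosomal processed copy of the X-linked Rps4x gene of the small subunit, was the only variant paralog of the 5 with a high level that also fell. Its levels were 442, 549, 460 and 459 CPM in ESC, 288, 404, 332 and 355 CPM in Eo- and 148, 170, 166 and 197 CPM in Eo+. These groups did not overlap either. In the fit without a filter on class or level, the one fit that held it, its log2 change was -1.56 from ESC to Eo+ (SE 0.12, adjusted p = 2.68e-08), -0.50 from ESC to Eo- (SE 0.11, adjusted p = 0.00138) and -1.06 from Eo- to Eo+ (SE 0.12, adjusted p = 1.52e-05), beside 48.4, 39.8 and 21.1% of the 69928 loci of that fit that passed in the same comparisons. The assembled locus spans chr6:148354382-148387091 on the plus strand and is far longer than the annotated gene at chr6:148354656-148355598.

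Rps27l, the copy of Rps27 in the small subunit, kept its level. It stood at 257, 249, 312 and 248 CPM in ESC, at 251, 277, 320 and 262 CPM in Eo- and at 248, 261, 262 and 252 CPM in Eo+. The ranges overlapped in every comparison. Its log2 change was -0.06 from ESC to Eo+ (95% interval -0.24 to 0.13), 0.06 from ESC to Eo- (-0.13 to 0.24) and -0.11 from Eo- to Eo+ (-0.30 to 0.07), and none passed the test.

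None of the 5 core copies passed the test in the reported fit scaled to the library. Among the alternatives, Rps4x passed in Eo- against ESC with library totals (adjusted p = 0.0245), and Rpl3 passed between the sorted fractions without replicate 1 of Eo- (adjusted p = 0.0352). Relative to their own ESC mean, Rpl39 stood at 111% in Eo- and 115% in Eo+, while Rpl39l stood at 21.3% and 0.702%. Rpl10 stood at 97% and 100%, while Rpl10l stood at 15.9% and 0.717%. Rpl3 stood at 103% and 95.6%, while Rpl3l stood at 46.6% and 8.47%. In the same order, Rps4x stood at 104% and 102% and Rps4l at 72.2% and 35.6%. For Rpl10 the 95% interval of the log2 change from ESC to Eo+ was -0.13 to 0.13, and for Rps4x it was -0.07 to 0.14. The 5 variant paralogs together made up 0.839% ± 0.0292 of the member counts in ESC, 0.634% ± 0.0168 in Eo- and 0.449% ± 0.0162 in Eo+ (SD, n = 4 each). Most of these counts fell on Rps4l (478, 345 and 170 CPM on average in ESC, Eo- and Eo+) and Rps27l. The fall of this share mainly follows Rps4l, a processed pseudogene, since Rpl10l went only from 55.4 to 0.398 CPM from ESC to Eo+. Rpl39l, Rpl10l and Rpl3l passed under each alternative fit that held them, including each fit without 1 library (Rpl3l was not in the fit filtered at 1 CPM), and over these fits the log2 change of Rpl39l from ESC to Eo+ was between -7.48 and -6.93. Replicate 6 of ESC had both the highest Rpl39l level of the ESC libraries and the lowest sum of feeder genes (280 CPM). The part of feeder cells in the levels of ESC was not tested.

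**Figure D3:**
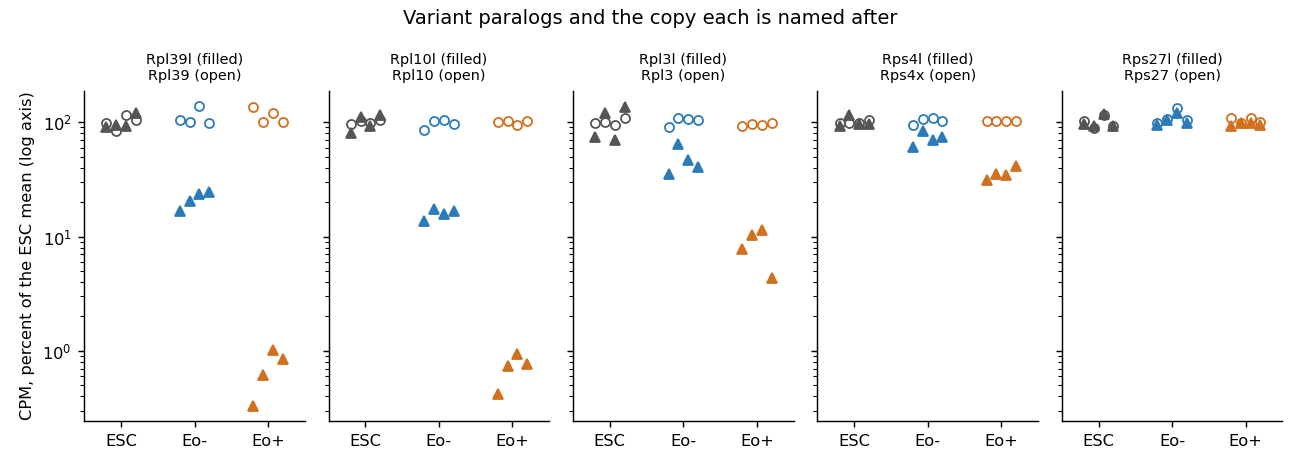
CPM of the 5 variant paralogs (filled triangles) and their 5 core copies (open circles) in each library as a percent of that gene's ESC mean, on a log axis, with 4 points per group. Rpl39l, Rpl10l and Rpl3l step down from ESC to Eo- to Eo+, to 0.702, 0.717 and 8.47% on average, Rps4l to 35.6%, and Rps27l and the core copies stay near 100%.

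Among the core members of the large subunit, 2 rose from ESC to Eo+. Rpl41, a very small basic peptide at the bridge between the subunits, stood at 1215, 1209, 1259 and 1092 CPM in ESC and at 1292, 1422, 1504 and 1549 CPM in Eo+. In Eo- it stood at 1203, 1673, 1588 and 1470 CPM. All Eo+ libraries lay above all ESC libraries, while 1 Eo- library lay within the ESC range. The log2 change was 0.27 from ESC to Eo+ (SE 0.09, adjusted p = 0.0189) and 0.30 from ESC to Eo- (SE 0.09, adjusted p = 0.012). The Eo+ call was lost in 5 of the 22 alternatives (adjusted p of up to 0.0949), among them the DESeq2 Wald test and the fit without replicate 6 of ESC (adjusted p = 0.0582). Rpl36a, a zinc-binding protein near the exit site for transfer RNA, stood at 548, 510, 617 and 553 CPM in ESC, at 575, 639, 746 and 622 CPM in Eo- and at 653, 601, 680 and 637 CPM in Eo+. Its ranges overlapped, with a log2 change of 0.21 in both comparisons (adjusted p = 0.0315 for Eo+ and 0.036 for Eo-). Either call of Rpl36a was lost in 10 of the 22 alternatives, the DESeq2 Wald test and DESeq2 size factors among them, and these include 5 of the fits without 1 library, with adjusted p of up to 0.0969 for Eo+ and 0.117 for Eo-, the former on leaving out replicate 2 of ESC, the latter on leaving out replicate 5 of Eo-.

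The core members that fell from ESC to Eo+ were led by Rpl8, a protein next to the peptidyl transferase centre. It stood at 2177, 2637, 2127 and 2338 CPM in ESC and at 1699, 1978, 1755 and 2009 CPM in Eo+, and all Eo+ values lay under the ESC range. Its log2 change was -0.32 (SE 0.11, adjusted p = 0.0152), and the adjusted p rose to 0.0539 when either replicate 2 of ESC or replicate 1 of Eo+ was left out. Its locus also held Commd5. Rpl13a, a large-subunit protein also known for a role outside the ribosome in silencing inflammatory mRNAs, stood at 2264, 2589, 2283 and 2311 CPM in ESC, at 1810, 2374, 2226 and 1973 CPM in Eo- and at 1925, 1895, 1871 and 1996 CPM in Eo+. It was lower in every Eo+ library than in every ESC library (log2 change -0.30, SE 0.08, adjusted p = 0.00335). Its locus also held Flt3l. Rpl4, which lines the exit tunnel, stood at 3480, 3813, 3497 and 3502 CPM in ESC and at 3072, 3160, 2977 and 3225 CPM in Eo+, with no overlap (log2 change -0.20, SE 0.06, adjusted p = 0.01). Rpl13a and Rpl4 kept their call in each fit without 1 library. The other core members that fell included Rpl21, Rps21, Rps18, Rpl30 and Rps7, of which the first 4 are named outside the rule for named genes, after their values were seen, and their log2 changes lay between -0.27 for Rpl21 and -0.18 for Rps7. Of the 75 core members, 16 had no overlap between ESC and Eo+, while 64.5% of all loci had none.

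From ESC to Eo-, the core members that rose beside Rpl41 and Rpl36a were Rpl31, Rps26, Rpl37a and Rps19. Rpl31, which sits near the mouth of the exit tunnel, stood at 862, 850, 903 and 957 CPM in ESC, at 922, 1132, 1171 and 1080 CPM in Eo- and at 858, 942, 967 and 929 CPM in Eo+. In 3 of the 4 Eo- libraries it lay above every ESC and Eo+ library, and the fourth, replicate 1, lay within both ranges. The log2 change was 0.26 from ESC to Eo- (SE 0.07, adjusted p = 0.00644), and Eo+ was lower than Eo- by a log2 change of -0.22 (SE 0.07, adjusted p = 0.0267). Rps26, which touches the mRNA near its exit from the small subunit, stood at 970, 917, 1025 and 770 CPM in ESC and at 938, 1253, 1260 and 1048 CPM in Eo- (log2 change 0.28, SE 0.10, adjusted p = 0.0294). Rpl37a, a zinc-binding protein of the large subunit, had a log2 change of 0.23 (adjusted p = 0.0297). Rps19, needed for maturation of the small subunit and known from inherited red-cell aplasia, stood at 1030, 1082, 1045 and 1000 CPM in ESC and at 1009, 1319, 1285 and 1154 CPM in Eo- (log2 change 0.19, SE 0.07, adjusted p = 0.0359). In all 4 genes replicate 1 was the lowest Eo- library and lay within the ESC range. No core member was without overlap between Eo- and ESC, where 55.8% of all loci were. The calls of Rps26, Rpl37a and Rps19 were lost in 9, 10 and 11 of the 22 alternatives, the DESeq2 Wald test, DESeq2 size factors, the 1 CPM filter and the fit without a filter among them. Without replicate 6 of ESC the adjusted p was 0.0968 for Rps26, 0.0859 for Rpl37a and 0.0816 for Rps19, and without replicate 2 of Eo- it was 0.0912, 0.0941 and 0.116. The calls of Rpl31 and Rpl41 from ESC to Eo- were kept in each fit without 1 library.

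Rps7, a small-subunit protein that also binds the ubiquitin ligase Mdm2, was the one core member called lower than ESC in both sorted fractions in the reported fit. It stood at 1052, 1056, 1077 and 1031 CPM in ESC, at 829, 985, 1056 and 902 CPM in Eo- and at 905, 939, 905 and 965 CPM in Eo+. All Eo+ libraries were lower than all ESC libraries, and 1 Eo- library reached into the ESC range. The log2 change was -0.18 in Eo+ (SE 0.07, adjusted p = 0.0225) and -0.17 in Eo- (SE 0.07, adjusted p = 0.0396). The call in Eo- was lost in 9 of the 12 fits without 1 library, and leaving out replicate 1 of Eo- gave an adjusted p of 0.133. That in Eo+ was lost without replicate 1 (adjusted p = 0.0722) or 5 of Eo+ (adjusted p = 0.07). Of the 22 alternatives, 13 lost the call in Eo-. Rpl13a, called in Eo+, passed in Eo- as well in 7 of the 22, among them the replicate block (adjusted p = 0.0323, without the block 0.0562). Both comparisons share the ESC libraries, so a low or high ESC value moves both.

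The core members that were lower in Eo+ than in Eo- included Rpl31, Rpl14 and Rpl7, of which Rpl7 is named outside the rule for named genes, after its values were seen. Rpl14, a protein of the large subunit, stood at 1388, 1715, 1789 and 1579 CPM in Eo- and at 1315, 1342, 1511 and 1445 CPM in Eo+. Its ranges overlapped through replicate 1 of Eo-, and its log2 change was -0.20 (SE 0.07, adjusted p = 0.0378). Rpl7 had a log2 change of -0.15 (adjusted p = 0.0432), and its call was lost in 13 of 23 alternatives (adjusted p of up to 0.149), among them edgeR's quasi-likelihood test, the DESeq2 Wald test and the fits without replicate 2 of ESC, without replicate 2, 5 or 6 of Eo- and without any 1 replicate of Eo+. With the replicate number as a block, which pairs the sorted fractions, Rpl8 passed as well (log2 change -0.23, adjusted p = 0.0132, without the block 0.0914). So did Rplp1 (adjusted p = 0.0277) and Rps12 (-0.18, adjusted p = 0.0418), the latter not with the block fitted to the 8 sorted libraries alone. No core member was without overlap between the sorted fractions, where 45.9% of all loci were. The call of Rpl31 was lost without replicate 2, 5 or 6 of Eo- or replicate 1 or 6 of Eo+ (adjusted p of up to 0.1), and that of Rpl14 without any 1 of these or replicate 2 of Eo+ (up to 0.125).

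The 3 stalk proteins, which recruit the elongation factors to the ribosome, did not pass in any comparison. Rplp0, the base of the stalk, stood at 1827, 2080, 1825 and 1738 CPM in ESC, at 1716, 2227, 1977 and 2004 CPM in Eo- and at 1753, 1966, 1684 and 2069 CPM in Eo+. Its log2 change from ESC to Eo+ was -0.00 (95% interval -0.19 to 0.19). Rplp1 had a log2 change of -0.19 from ESC to Eo+ (adjusted p = 0.0906) and of -0.23 from Eo- to Eo+ (adjusted p = 0.0608), and Rplp2 of -0.12 from ESC to Eo+ (adjusted p = 0.268). Rplp1 passed without replicate 1 of Eo-, at adjusted p = 0.0282 and 0.00266, and with the replicate block, at adjusted p = 0.0464 and 0.0277. Rpsa, the small-subunit protein also described as a laminin receptor, stood at 2973, 3308, 2737 and 2950 CPM in ESC and at 2824, 2961, 2777 and 3223 CPM in Eo+ (log2 change -0.02, 95% interval -0.20 to 0.15). Rpl38, Rpl10a and Rpl24, known for a role in the translation of particular mRNAs or for effects of their mutation on particular tissues, passed in none of the 3 comparisons of the reported fit. Rpl38, whose loss alters the axial skeleton through Hox mRNA translation, had a log2 change of 0.14 from ESC to Eo+ (95% interval -0.10 to 0.38). Rpl10a had 0.05 from ESC to Eo+ and 0.11 from ESC to Eo-, and the latter passed with library totals (adjusted p = 0.0213) and without replicate 1 of Eo- (adjusted p = 0.0353). Rpl24, named for the Belly spot and tail mouse, had -0.18 in both comparisons with ESC (adjusted p = 0.0664 for Eo+), in a locus that also held Zbtb11. Rpl24 passed with the replicate block in both (adjusted p = 0.0127 for Eo+ and 0.0161 for Eo-), and in all in 8 and 6 of the 22 alternatives, DESeq2 among them.

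A second fit set each library's size to its summed member counts, so that a member was read against ribosomal protein mRNA as a whole. It placed 19, 16 and 1 of the 75 core members past the threshold in Eo+ against ESC, Eo- against ESC and Eo+ against Eo-, and 22, 19 and 4 of the 79 tested, beside 68.9, 57.2 and 45.2% of all loci on the same scale. In Eo+ against ESC, 10 of the 22 were higher and 12 lower, where 36.7% of all loci were higher and 32.2% lower. In Eo- against ESC, 9 of the 19 were higher and 10 lower, where 27.4% of all loci were higher and 29.8% lower. The library size was the sum of these same members, so rises and falls among them must largely offset each other. The even split of directions is therefore not a result about the members. Rpl41 (0.33 and 0.29 log2 in Eo+ and Eo-, adjusted p = 0.000251 and 0.00108), Rpl36a (0.27 in Eo+, adjusted p = 0.00547) and Rps26 (0.22 and 0.27, adjusted p = 0.0226 and 0.008) were higher than the rest of the ribosomal protein mRNAs in the sorted cells. Rpl13a (-0.23 and -0.19, adjusted p = 0.000505 and 0.00282) and Rpl4 (-0.14 and -0.13, adjusted p = 0.00812 and 0.0117) were lower. In all, 10 core members passed against ESC in both fractions, and 49 passed in no comparison. From Eo- to Eo+, Rpl10 was the one core member past the threshold, at 1455, 1723, 1751 and 1622 CPM in Eo- and 1690, 1732, 1588 and 1738 CPM in Eo+, with a relative log2 change of 0.12 (SE 0.05, adjusted p = 0.0491). The call of Rpl10 was lost in 10 of the 14 alternatives of this fit, with adjusted p of up to 0.129, and 9 of the 10 leave out 1 library. Rpl39l, Rpl10l and Rpl3l, the other members past the threshold, kept their calls in all 14. With the replicate block, 8 members passed there instead of 4, and of all 17922 loci 9042 passed instead of 8105.

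The replicates of Eo- spread more than those of the other groups, and the core members moved together in them. The median coefficient of variation over the 75 core members was 12.1% in Eo- (5.7 to 19.3%), 6.22% in ESC (1.78 to 16.9%) and 4.14% in Eo+ (0.629 to 15.4%). In replicate 1 of Eo-, the median deviation from the group mean was -0.21 log2 and 0 of the 75 core members were above the group mean. In replicate 5 it was 0.14 log2 and all 75 were above, and in replicate 2 it was 0.11 with 70 above. No median deviation in ESC or Eo+ was beyond 0.04 log2. Replicate 1 of Eo- is the library with 110 CPM of red-cell mRNA. Red-cell mRNA in replicate 1 of Eo+ came to 17.8 CPM and in replicates 2, 5 and 6 to between 1.65 and 5.47 CPM, and the median deviation of replicate 1 was -0.02. Other lists were also lowest in replicate 1 of Eo-: the summed level of the other ribosomal proteins was 5076 CPM there and 5728 to 6274 CPM in replicates 2, 5 and 6, that of the elongation factors 22079 and 23584 to 25498 CPM, and that of the mitochondrial ribosomal proteins 5505 and 5975 to 6413 CPM. The part of red-cell mRNA in the shift was not tested.

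**Figure D4:**
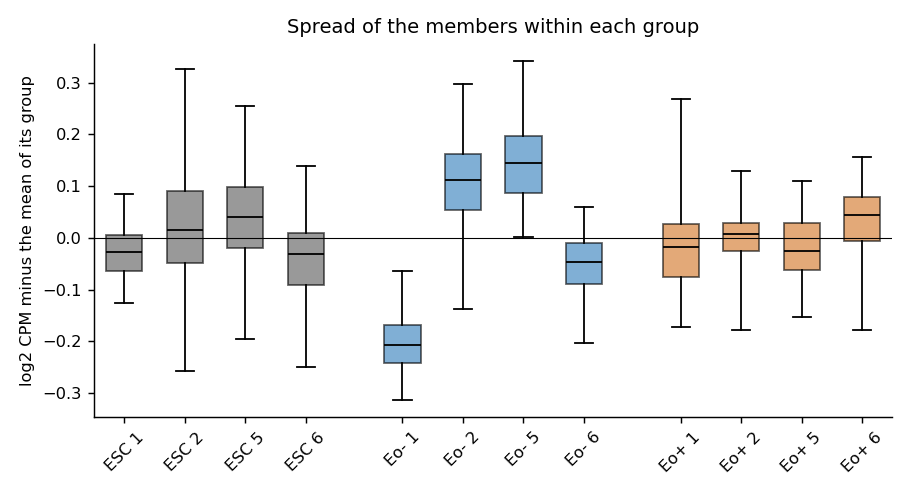
Log2 CPM minus the group mean (y axis) for the 75 core members in each of the 12 libraries (x axis), as boxes of the middle 50% with the median as a line and whiskers to the lowest and highest member. The median is -0.21 in Eo- replicate 1 and 0.14 in Eo- replicate 5, and between -0.03 and 0.04 in each ESC library.

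The factors that assemble ribosomes were mostly lower in both sorted fractions than in ESC. Of 80 such factors tested, 70 were lower in Eo+ than in ESC and 0 were higher (87.5% called, beside 71.9% of all loci, median log2 change -0.47), and 66 were lower and 1 higher in Eo- (83.8% called, beside 62.2% of all loci, median -0.34). Between the sorted fractions 18 were lower in Eo+ and 2 higher (median -0.13), and the 25% called lay under the 47.7% of all loci. Rrp9, a protein of the U3 processing complex, stood at 167 to 205 CPM in ESC and 72.2 to 108 CPM in Eo+ (log2 change -1.04, SE 0.13, adjusted p = 5.99e-06). Nop16, whose locus also held Cltb, was lower in Eo- by a log2 change of -0.85 (SE 0.07, adjusted p = 5.89e-07). Gar1, of the box H/ACA particles that modify ribosomal RNA, was the one that rose in Eo- (0.33, SE 0.11, adjusted p = 0.0187). Nhp2, of the same particles, was lower in Eo+ than in Eo- (-0.49, SE 0.10, adjusted p = 0.00172), and Aatf was higher (0.49, adjusted p = 0.000853).

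The RNA polymerase I list, which makes ribosomal RNA and here includes shared subunits and the polymerase III factor Gtf3a, had 11 of 21 members lower in Eo+ than in ESC and 0 higher (median -0.24). In Eo- 10 were lower and 2 higher. The shares called, 52.4% and 57.1%, were under the 71.9% and 62.2% of all loci. Rrn3, the factor that recruits RNA polymerase I to its promoter and responds to growth signals, stood at 260 to 314 CPM in ESC, 183 to 196 in Eo- and 127 to 138 in Eo+. The 3 ranges did not overlap, and the log2 change was -1.11 from ESC to Eo+ (SE 0.06, adjusted p = 4.89e-09) and -0.51 from Eo- to Eo+ (SE 0.06, adjusted p = 3.08e-05). Of the initiation factors, 23 of 39 were lower and 4 higher in Eo+ (median -0.24) and 22 lower and 4 higher in Eo- (median -0.21). The shares called, 69.2% and 66.7%, were near those of all loci, 71.9% and 62.2%. Eif2s2, a subunit of the factor that carries the initiator transfer RNA, was at 604 to 715 CPM in ESC and 339 to 361 CPM in Eo+ (log2 change -0.93, SE 0.06). Eif4g3, a scaffold of the cap-binding complex, rose instead, from 56.3 to 69.2 CPM in ESC to 132 to 139 CPM in Eo+ (1.06, SE 0.07). Both kept to their side of the ESC range in every Eo+ library. Eif1b rose most in Eo- (0.66, SE 0.08), and Pabpc4, a poly(A)-binding protein, fell most from Eo- to Eo+ (-0.32, SE 0.08). On the polymerase list, Gtf3a rose most in Eo- (0.36, SE 0.07) and the shared subunit Polr2e fell most there (-0.72, SE 0.10).

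The elongation factor list here also held termination, recycling and ribosome rescue factors and the kinase Eef2k. It split, with 3 of 16 higher and 8 lower in Eo+ (median -0.17) and 4 of each in Eo- (median -0.08), or 68.8% and 50% called beside 71.9% and 62.2% of all loci. Eef1a2, the tissue-restricted copy of the factor that delivers transfer RNA, showed the largest fall in Eo+, to 0.372 to 0.813 CPM from 1.42 to 2.27 in ESC (-1.62, SE 0.25), and was higher in Eo- than in ESC, at 2.17 to 2.87 CPM (0.52, SE 0.21, adjusted p = 0.0489), while the ubiquitous copy Eef1a1 had a log2 change of -0.04 (adjusted p = 0.691). Eif5a2 rose most in Eo+ (0.58, SE 0.11). In Eo-, Eef2k, the kinase that inhibits elongation factor Eef2, rose most (0.69, SE 0.12) and Eef1e1 fell most (-0.67, SE 0.07). Of 8 other ribosomal proteins and close relatives that the naming rule left out, 1 rose and 2 fell in Eo+ (37.5% called, beside 71.9% of all loci), and 0 rose and 1 fell in Eo-, where 62.2% of all loci were called. Rpl22l1, a copy of Rpl22, rose by 0.44 log2 in Eo+ (SE 0.10, adjusted p = 0.00177), and Rpl7l1, a relative of Rpl7, was lower in both fractions (-0.27 each). Regulators of ribosomal protein synthesis moved in both directions, with 7 of 27 higher and 12 lower in Eo+ (70.4% called, beside 71.9% of all loci). Mycl rose by 2.34 log2 in Eo+ and Mdm2 was lower (-1.39), and Myc was higher in Eo+ than in Eo- (0.95, SE 0.15, adjusted p = 0.00021). Larp1b was lower there (-0.67, SE 0.12).

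The proteins of the mitochondrial ribosome, a separate machine made in part from nuclear genes, moved in both directions. Of 77 tested, 15 were higher and 33 lower in Eo+ than in ESC (62.3% called, median -0.16), 13 and 25 in Eo- (49.4%, median -0.09), and 6 and 13 between the sorted fractions (24.7%). Of all loci, 71.9, 62.2 and 47.7% were called in the same comparisons. Mrps6, whose locus also held Slc5a3, rose by 1.32 log2 in Eo+ (SE 0.13), and Mrps18b was lower (-0.92, SE 0.08). Mrps21 rose most in Eo- (0.56, SE 0.09), and Mrps34, whose locus also held Nme3, fell most from Eo- to Eo+ (-0.49, SE 0.10). The share called was 19% for the 79 cytosolic members in Eo+ against ESC, 12.7% in Eo- against ESC and 8.86% between the sorted fractions. These lists were read against the same ESC libraries, which carried feeder mRNA, and the part of feeder cells in their changes was not tested.

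**Figure D5:**
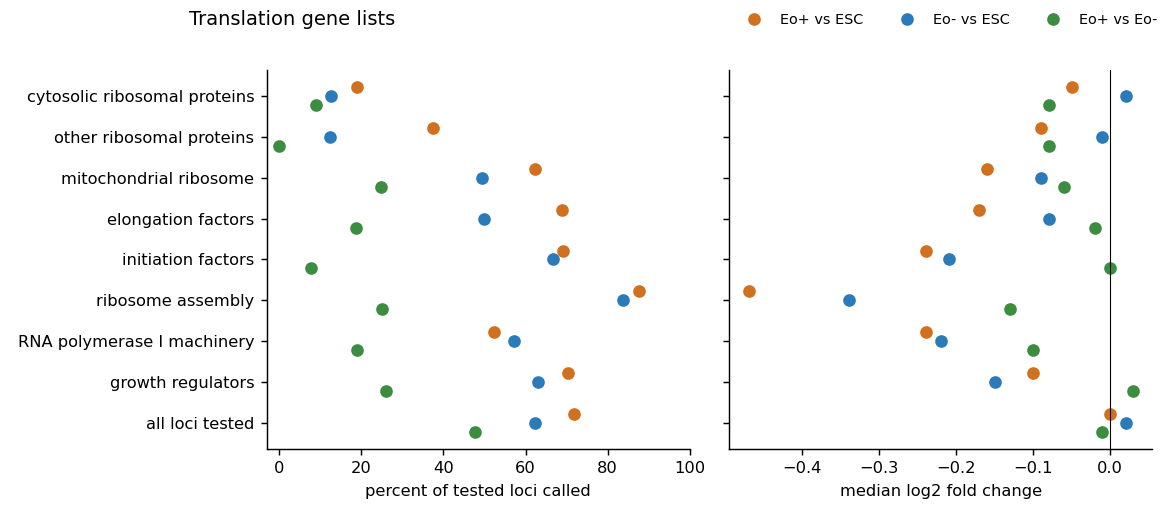
Percent of tested loci called (left) and median log2 fold change (right) of the cytosolic ribosomal proteins, 7 other lists of translation-related genes and all loci tested, with 1 point per comparison. The cytosolic ribosomal proteins lie at 19, 12.7 and 8.86% called, and of the lists plotted the ribosome assembly factors have the lowest median, -0.47 in Eo+ against ESC.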

How the data were processed

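RNA was measured in 12 libraries, 4 each of ESC, Eo- and Eo+, grouped by the labels. Per the study's methods, the authors mapped the read pairs to mm10 with STAR, assembled transcripts with Cufflinks 2.2.1, merged them with Cuffmerge, and made the deposited counts per merged locus with HTSeq 0.6.1 by strand. The deposited counts tally reads without a unique placement apart from the loci. The deposited normalized table holds the same counts times 1 constant per library and was not used. The STAR version is not printed, since the labels and the methods give different ones.

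Loci received biotypes from the GENCODE mouse 21 annotation, and 97.7% of the 98653 reference transcripts that the assembly matched were found there. From the counts, 17922 loci (14216 protein-coding, 993 annotated lncRNA and 2713 non-annotated) with a mean FPKM over 0.1 in at least 1 group were fitted over all 12 libraries with voom and limma 3.58.1 (R 4.3.3), TMM scaling from edgeR 4.0.16, 1 mean per group and Benjamini-Hochberg adjustment over all loci, and a locus was called where the adjusted p did not exceed 0.05. CPM are scaled by TMM. A second fit took the summed members as library size. Medians and shares of members were not tested. Alternatives were a replicate block, edgeR's quasi-likelihood test, DESeq2 1.42.0, other scalings and filters, fits of 2 groups and fits without each library in turn. The scripts were tested on simulated counts. The limit of 3 counts covers counting error only.

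The members and all gene lists were chosen with earlier results of these data known. Named members are, per comparison, the 5 called members that rose most and the 5 that fell most, 3 of each in the second fit, the 5 highest and 5 lowest by FPKM, the stalk proteins, Rpsa, the variant paralogs with their core copies, and Rpl38, Rpl10a, Rpl24 and Rps19. Some members are counted but not reported here by name. Of each translation-related list, the called genes that rose and fell most per comparison are named. Lists of cell type markers are given by sums and counts instead, with Mgp alone named, and Eef1a1 was added after its value was seen.

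The replicate numbers were checked as pairs by correlating deviations from the group means over all loci. Same-numbered Eo- and Eo+ libraries correlated at 0.311 to 0.634, so the numbers pair the sorted fractions. Same-numbered ESC libraries correlated at -0.125 to 0.432 with Eo- and at -0.096 to 0.135 with Eo+, and over the members alone at 0.0908 to 0.853 and -0.245 to 0.708. The methods name 4 differentiation sets for all 12 libraries, and the labels do not say that a number marks a set.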

Additional observations from a re-analysis of the deposited data

Results flagged for a closer look

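Groups of 4 libraries were looked at for the 32 named members, the members' share of counts and the ratio of the subunits, 102 groups in all. In 9 of them, each of a named member, 1 library stood apart from the other 3 by Dixon's criterion, which chance alone meets in about 5% of groups. Replicate 2 of ESC was the highest for Rpl13a (2589 CPM, the others 2264 to 2311), for Rpl4 (3813 CPM, the others 3480 to 3502) and for Rps4l (549 CPM, the others 442 to 460). Replicate 5 of ESC was the highest for Rpl38 (624 CPM, the others 485 to 501) and for Rps27l (312 CPM, the others 248 to 257). Replicate 6 of ESC was the highest for Rpl39l (39.1 CPM, the others 29.5 to 31) and for Rps4x (2393 CPM, the others 2216 to 2245). In Eo-, replicate 1 was the lowest for Rpl3 (1800 CPM, the others 2076 to 2132) and replicate 5 the highest for Rpl39 (636 CPM, the others 455 to 480). Leaving out the library that stood apart changed no call of Rpl13a, Rpl4 or Rpl39l, and without replicate 1 of Eo- the log2 change of Rpl3 from Eo- to Eo+ passed (adjusted p = 0.0352).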

How the results depend on the processing

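Of the values of named members under the alternatives, 1922 kept their side of the threshold (46 of them, all uncalled, changed sign at 2 decimals), 60 passed where the reported fit did not, 92 no longer passed and 0 of the called values changed sign. For Eo+ against ESC, 15 members were called in the reported fit, 23 when loci were kept at 1 CPM in 4 or more libraries, 26 with the 2 groups alone, 3 with at least 2-fold change and 9 to 18 without 1 library (9 without replicate 1 or 5 of Eo+). Over all loci, the same settings called 12888 of 17922, 9877 of 13699, 12440 of 17922, 6830 of 17922 and 12347 to 12873 of 17922. DESeq2's Wald test called 0 higher and 17 lower, where the reported fit had 2 and 13. Over all loci that test called 6172 higher and 6900 lower, and the reported fit 6412 and 6476. For Eo- against ESC, 10 were called, 23 with library totals, 3 with at least 2-fold change and 5 to 20 without 1 library. Of all 17922 loci, 11154, 11250, 5069 and 10239 to 11309 were called in the same order. Between the sorted fractions 7 were called, 12 with library totals, 4 with the 2 groups alone, 3 with at least 2-fold change and 3 to 22 without 1 library. Of all 17922 loci, 8543, 8409, 8980, 3789 and 7476 to 8844 were called in the same order. In the fit relative to the summed members, 22, 19 and 4 were called, and without 1 library 14 to 23, 13 to 18 and 3 to 7. The replicate block gave 22, 13 and 10 in the scaled fit (9 for the sorted libraries alone, an alternative chosen after seeing the data) and 28, 21 and 8 in the relative one. Of all 17922 loci, the block called 13402, 11839 and 9555 in the scaled fit (10392 for the sorted libraries alone) and 12861, 10953 and 9042 in the relative one. Over all loci, not every same-numbered pair with an ESC library correlated, so whether the numbers pair ESC with the sorted fractions is not settled.

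The median log2 change from ESC to Eo+ was -0.0466 in the reported fit, -0.0932 with DESeq2 size factors, -0.0016 with library totals and -0.0554 to -0.0203 without 1 library. From ESC to Eo- it was 0.0211, and it was 0.0937 with library totals, turned to -0.0302 with DESeq2 size factors and ran from -0.0412 to 0.0859 without 1 library. From Eo- to Eo+ it was -0.0759, and -0.1386 to -0.0299 without 1 library. With the tally of reads without a unique placement added to the counts, the members' share was 7.23, 7.65 and 7.29%. With matched transcript lengths, 3 of the 5 highest members by FPKM stayed. The cause of these changes was not tested.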

Other observations

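Of 22 long non-coding host genes of small nucleolar RNAs on the list, several of which are known to carry a pyrimidine start like that of the ribosomal proteins, 10 were tested. In Eo+ against ESC 2 were higher and 3 lower, in Eo- against ESC 4 were higher and 3 lower, and between the sorted fractions 1 was higher in Eo+, so 50, 70 and 10% were called, beside 71.9, 62.2 and 47.7% of all loci. Snhg18 stood at 1.93 to 2.5 CPM in ESC, 3.29 to 3.56 in Eo- and 4.7 to 6.71 in Eo+, with no overlap between the groups (log2 change 1.31 from ESC to Eo+, SE 0.14, adjusted p = 2.11e-06). Dancr was lower in Eo+ than in ESC, with no overlap (log2 change -1.12, SE 0.18, adjusted p = 6.28e-05). Snhg11 was higher in both sorted fractions than in ESC (0.93 and 0.95). Of 11 visceral endoderm genes, 8 passed between the sorted fractions and all 8 were higher in Eo+ (72.7% called), with sums of 102 to 180 CPM in Eo+ and 72.6 to 84.6 CPM in the other groups. Of 8 neuroectoderm genes tested, 1 was higher and 5 lower in Eo+ than in Eo- (75% called).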
